A study of Mus musculus with 9 samples.

Results

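The transcripts of the translation initiation and elongation factors were followed in MyC-CaP cells after addition of NRG1. Members were chosen by symbol: every gene whose name starts with Eif1 to Eif6, Eef1 or Eef2, leaving out the Eif2ak kinases, which gave 65 of the 15552 genes in the count table. The rule used no expression value. They were sorted into 16 groups by the complex or role of the protein, with the eIF4E-binding proteins (Eif4ebp genes) kept apart from the factors they bind. Of the 65 members, 60 had enough counts to be tested, among 11373 genes tested in all. MyC-CaP is a single mouse prostate cancer cell line that came from a MYC-driven tumor, and all 9 libraries were made from it by mRNA sequencing of total RNA. In every group the cells had been starved for 6 to 12 h in medium free of serum and calcium, and the HER3 ligand NRG1, a recombinant protein, was given at 15 ng/mL for 0, 12 or 24 h. Each time had 3 biological replicates. No buffer-treated libraries of the later times were analysed, so hours in this medium and hours with NRG1 cannot be told apart. The 12 h and the 24 h comparison share their 3 libraries at 0 h and are not independent of each other.

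Translation starts when the small ribosomal subunit, carrying eIF1, eIF1A, eIF3 and the ternary complex of eIF2, GTP and initiator tRNA, is brought to a capped mRNA by eIF4F. eIF4F is made of the cap-binding protein eIF4E, the scaffold eIF4G and the helicase eIF4A, and the 4E-BPs hold eIF4E away from eIF4G until mTORC1, a kinase downstream of growth factor receptors, phosphorylates them. After the start codon is found, eIF5 and eIF5B help the large subunit to join. eEF1A then delivers aminoacyl-tRNAs to the ribosome, eEF2 moves the ribosome along the mRNA, and eIF5A relieves pauses. These factors are regulated to a large degree by phosphorylation and binding of the proteins, which RNA sequencing does not measure.

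The libraries held between 28467089 and 39239760 counts. Replicate pairs had a Pearson r across genes of 0.995 to 0.996, and their chi-square per degree of freedom ran from 3.41 to 10.5, more than counting noise, so each library was counted as 1 sample. The share of mitochondrial transcripts was 1.41% to 1.498% in the 0 h libraries, 1.12% to 1.18% in those of 12 h and 1.21% to 1.36% in those of 24 h, and its part in the results was not tested. Of the luminal prostate markers listed, Hoxb13 stood at 81.3 to 106 CPM (counts scaled to library size) and Krt8 at 17.3 to 26.2 CPM. Krt18 was low, at no more than 0.491 CPM, and the epithelial genes Epcam and Cdh1 and the luminal gene Tmprss2 had at most 4 counts in any library, so these 3 markers of the labelled epithelial-like cells were at or near 0. Among fibroblast markers Pdgfra reached 14.8 to 17.7 CPM, with Col1a2 at no more than 1 count, and the leukocyte markers summed to at most 1.05 CPM. These are bulk libraries, in which fewer cells of a kind and less RNA per cell cannot be told apart.

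The most abundant transcripts of the family were those of elongation factors, though not of all of them. Per kilobase of annotated exon at 0 h, Eef1a1, which encodes the tRNA-delivering eEF1A1, stood at 5786 ± 265 CPM per kb (SD, n = 3) and Eef2, the translocase, at 2045 ± 106. Of the exchange factor that recharges eEF1A with GTP, the subunit genes Eef1g (567 ± 14.5) and Eef1b2 (485 ± 26.2) followed. Its subunit gene Eef1d was far lower, at 48.7 ± 1.51. Eef1a1 and Eef2 therefore differed from each other, and both from all other members, by far more than their spread. Among initiation factors Eif4b (368 ± 12.8), Eif1 (333 ± 5.41) and Eif3h (306 ± 12.7) were the highest per kb, and their ranges of mean ± SD touched neither each other nor any other initiation factor. The cap-binding protein gene Eif4e was low, at 22.7 ± 1.20 CPM per kb, below its inhibitors Eif4ebp1 (108 ± 4.25) and Eif4ebp2 (90.7 ± 1.07). The methyltransferase gene Eef1akmt3 was the lowest member tested, at 0.535 ± 0.154 CPM per kb. As a share of each library's counts, all 65 members came to 3.96% ± 0.0787 (0 h), 3.95% ± 0.0768 (12 h) and 3.95% ± 0.0257 (24 h), and Eef1a1 alone to 1.44%, 1.43% and 1.43%. Exon length counts the exons of all annotated transcripts of a gene, so levels of genes with long alternative ends are understated on this scale. Some counts are shared with other genes in ways that could not be resolved: 32.4% of the 100-base windows of Eef1g, 16.3% of Eef1a1, 22.6% of Eif4a1, 33.7% of Eif2s3x and 11.2% of Eif1 also occur in other genes, most of them unnamed gene models. For Eif3d this share was 32.0%, for Eif3j1 44.2% and for Eif3j2 84.0%. Eif3j1 and Eif3j2 share windows with each other.

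**Figure D1:**
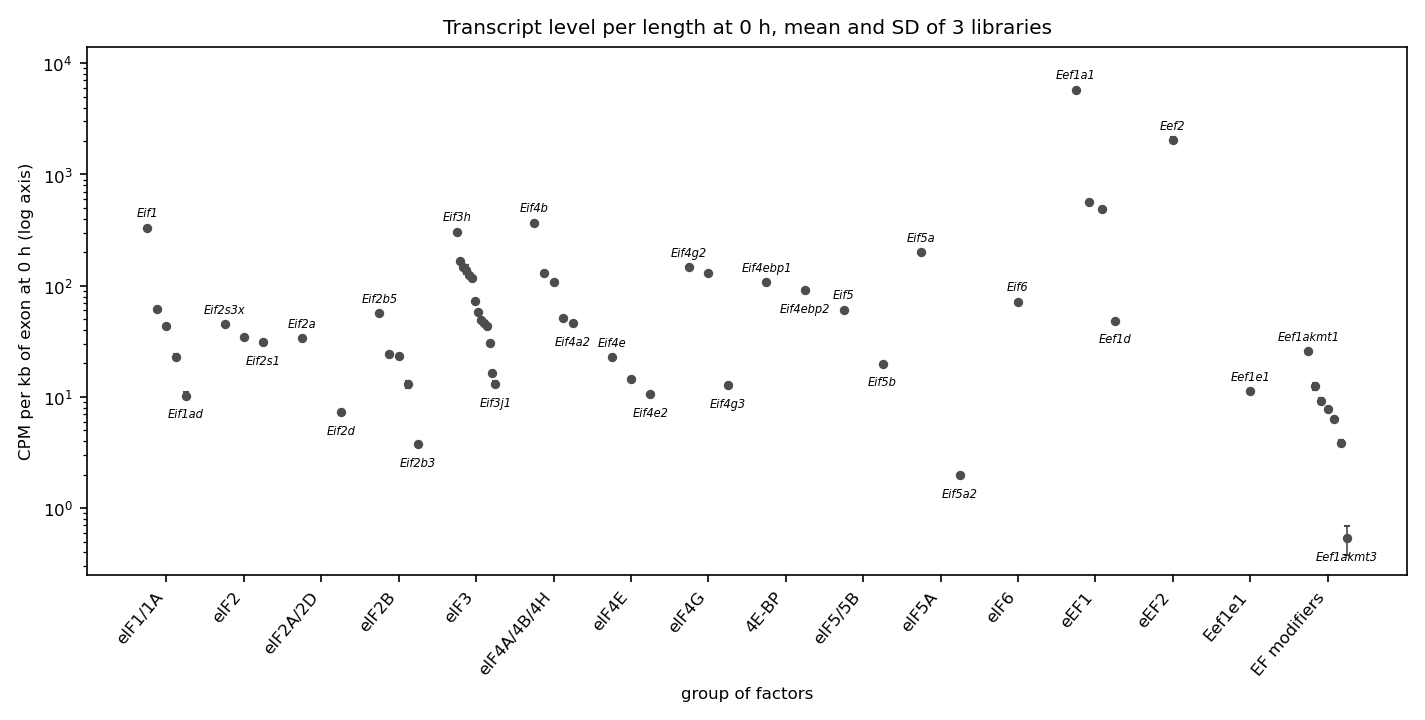
Transcript level per kilobase of exon at 0 h, on a log axis in CPM per kb, for the 60 tested members in their 16 groups; dots are means and bars the SD of 3 libraries, and the highest and lowest member of each group are named. Eef1a1 at 5786 and Eef2 at 2045 CPM per kb stand above all others, and Eef1akmt3 at 0.535 is the lowest.

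At 12 h, 15 of the 60 members (25%) were higher than at 0 h and 4 were lower, at an adjusted p of at most 0.05 in edgeR's quasi-likelihood test. Over all genes tested 13.6% were higher and 11.9% lower at this threshold, so the family had a larger share of rises and a smaller share of falls than the table as a whole, a difference that was not tested. At 24 h the counts were 4 higher and 4 lower, against 9.67% and 7.76% of all genes. Both shares of the family (6.67% each) then lay below the background. The changes were small. The largest that passed was Eif4ebp1 at 12 h, 1.26-fold, and no member reached 1.5-fold with an adjusted p of at most 0.05 in edgeR or in DESeq2 in any comparison, nor with an unadjusted p of at most 0.05. In edgeR 2.29% of all genes did so at 12 h and 2.27% at 24 h, and 0.29% from 12 to 24 h. The median absolute log2 fold change of members was 0.07 at 12 h, beside 0.11 for all genes, and 0.04 beside 0.09 at 24 h. A test across all 3 times found 21 members (35%), beside 27.4% of all genes: the 19 that passed at 12 h, with Eif2s3x and Eif3b.

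**Figure D2:**
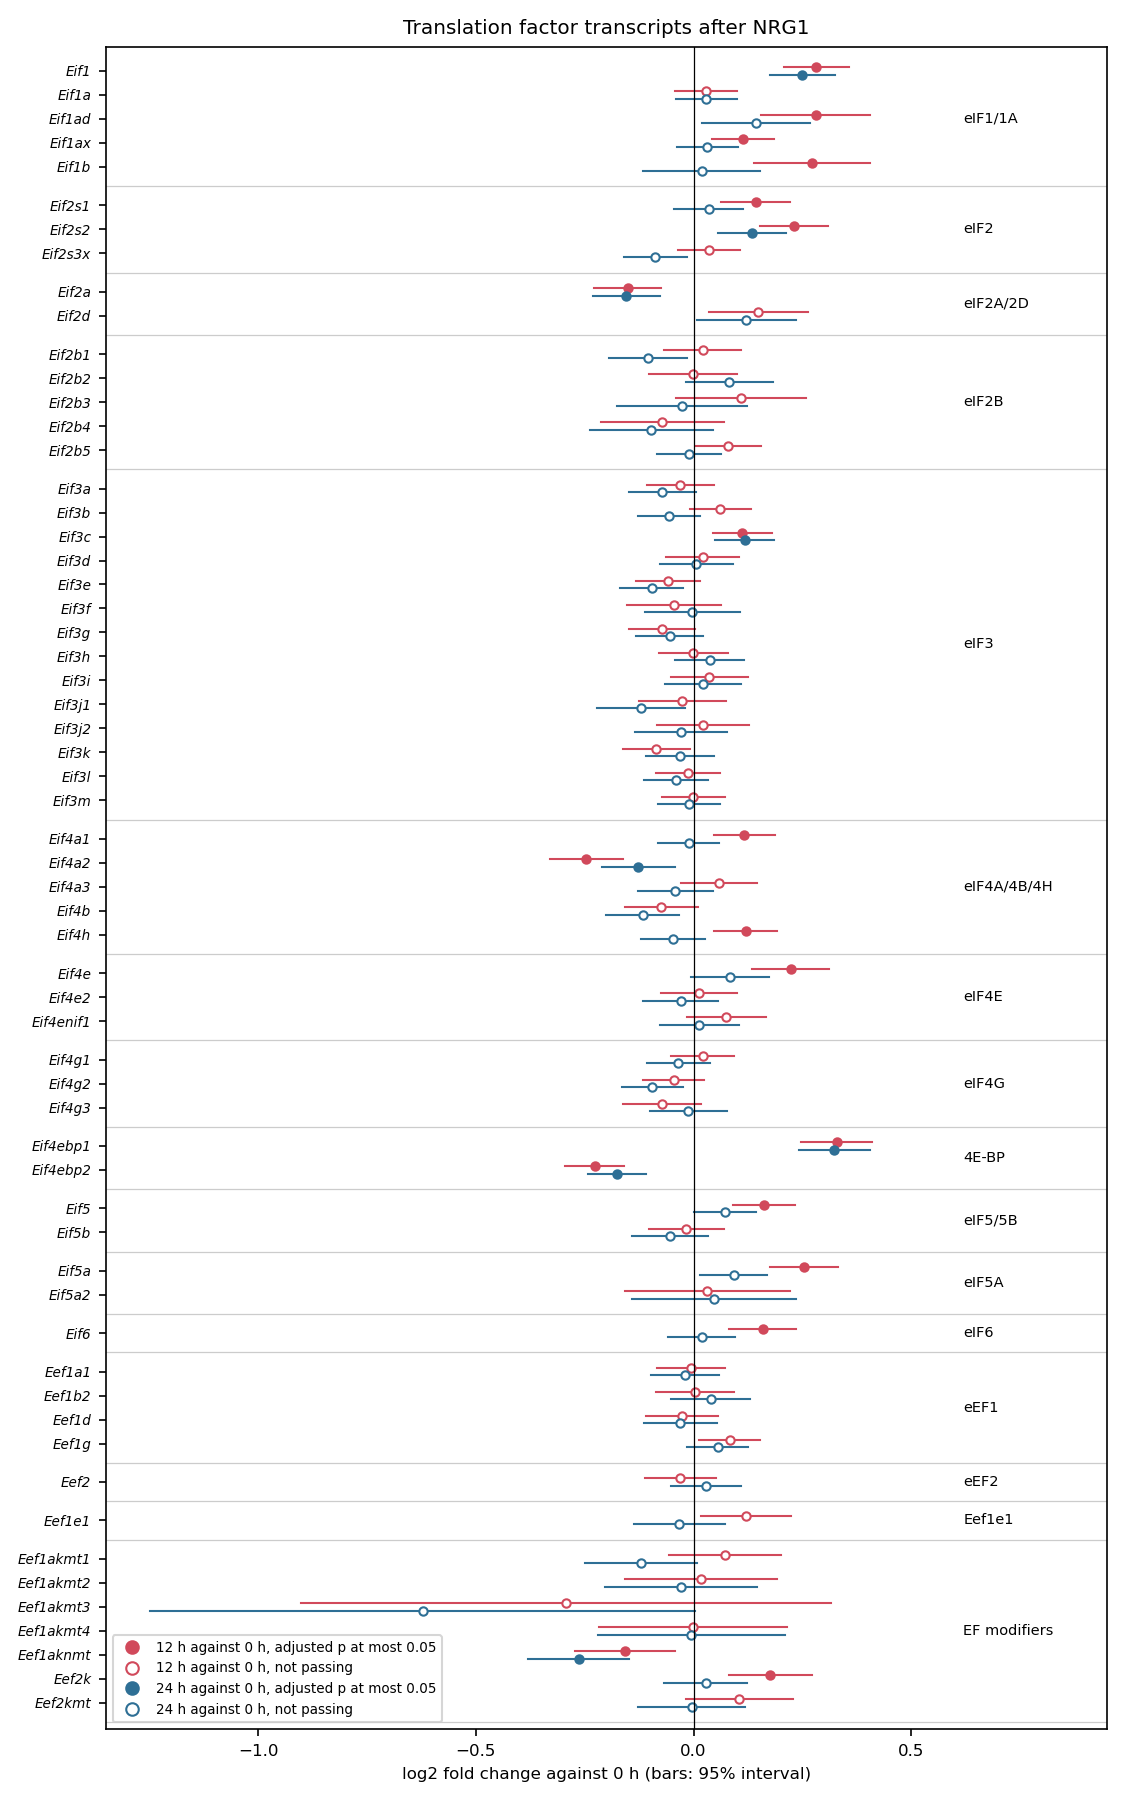
Log2 fold change against 0 h at 12 h (red) and 24 h (blue) for each tested member, sorted by group, with 95% intervals from the edgeR fit; filled dots have an adjusted p of at most 0.05. For 14 of the 15 members higher at 12 h the blue dot lies left of the red one, the exception being Eif3c. These 15 were chosen by their 12 h libraries, which favours this order. Eif3c is the single member of the 14 in eIF3 with filled dots, and all dots of eEF1 and eEF2 are open.

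Single libraries were also compared. At 12 h all 3 libraries lay above all 3 at 0 h for 20 of the 60 members (33.3%) and below them for 6 (10%), and over all genes this was so for 19.9% and 18.5%. At 24 h it was so for 9 members (15%) and 14 members (23.3%), beside 17.6% and 17.9% of all genes. Of the 15 members that were higher at 12 h, 4 were also higher at 24 h (Eif1, Eif2s2, Eif3c and Eif4ebp1), and the other 11 did not pass at 24 h. The 4 members that were lower at 12 h (Eif4a2, Eif4ebp2, Eif2a and Eef1aknmt) were all lower at 24 h too. Both comparisons use the same libraries at 0 h, which favours a shared call. The share of all genes called at 12 h that passed again at 24 h was not computed, so these counts have no background. No member passed in opposite directions at 12 and 24 h.

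Transcripts of the eIF4E-binding proteins moved in opposite directions. Eif4ebp1, on chromosome 8 (chr8:27260329-27276674, GRCm38, plus strand), stood at 246, 236 and 227 CPM in the libraries at 0 h, at 285, 300 and 306 CPM at 12 h and at 296 CPM in each library at 24 h. Every library with NRG1 for 12 or 24 h was above every library at 0 h, and the 12 and 24 h values overlapped. Eif4ebp1 was higher by 25.6% at 12 h (log2 fold change 0.33 ± 0.04 SE, adjusted p = 1.35e-05) and by 25.2% at 24 h (0.32 ± 0.04, adjusted p = 1.71e-05). Eif4ebp2 (chr10:61428491-61452661, minus strand), which encodes the second member of this inhibitor family, stood at 529, 527 and 518 CPM at 0 h, at 454, 443 and 447 CPM at 12 h and at 466, 462 and 465 CPM at 24 h. All its later libraries were below those at 0 h. The log2 fold change of Eif4ebp2 was -0.23 ± 0.03 at 12 h (adjusted p = 6.54e-05) and -0.18 ± 0.03 at 24 h (adjusted p = 0.000921). Eif4ebp3 had 0 to 11 counts and was not tested. All 4 of these changes passed with any 1 of the 9 libraries left out.

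Because the paralogs moved apart, their ratio changed by more than either gene did. Per kb, Eif4ebp1 stood at 1.19 ± 0.0339 times Eif4ebp2 at 0 h, at 1.75 ± 0.0831 times at 12 h and at 1.68 ± 0.0091 times at 24 h (SD, n = 3). The highest ratio at 0 h was 1.22 and the lowest at a later time 1.65, so the groups did not overlap. The cap-binding protein gene Eif4e (chr3:138526179-138559696, plus strand) stood at 130, 136 and 144 CPM at 0 h, at 159, 163 and 157 CPM at 12 h and at 141, 150 and 143 CPM at 24 h. The libraries at 12 h were above all at 0 h, and those at 24 h overlapped the upper end of the 0 h range. Eif4e was higher by 16.7% at 12 h (log2 fold change 0.22 ± 0.04, adjusted p = 0.000932), and at 24 h its log2 fold change was 0.08, with a 95% interval from -0.00 to 0.17 (adjusted p = 0.193). The sum of Eif4ebp1 and Eif4ebp2 per kb was 8.75 ± 0.690 times Eif4e at 0 h, 8.02 ± 0.247 times at 12 h and 8.93 ± 0.295 times at 24 h, ranges that overlapped between 0 h and each later time. The other cap-binding paralog tested, Eif4e2, and Eif4enif1, which encodes the eIF4E transporter 4E-T, did not pass, and Eif4e2 had a 95% interval from -0.07 to 0.10 at 12 h. Eif4e3, with 0 to 10 counts, was not tested.

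**Figure D3:**
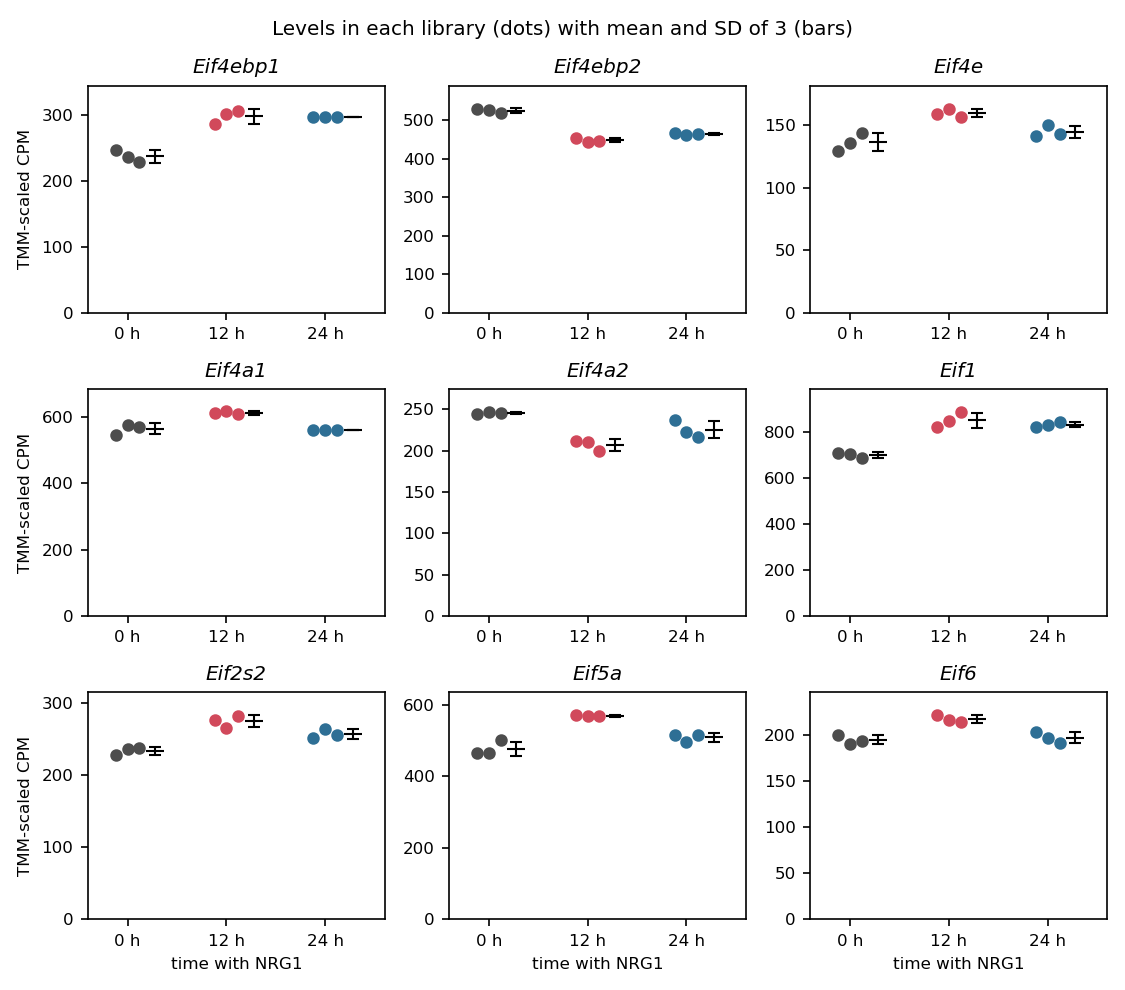
Level in each library, in TMM-scaled CPM from 0, for 9 members at 0, 12 and 24 h; dots are single libraries and the black marks the mean and SD of 3. Eif4ebp1 and Eif1 stay above their 0 h libraries at 24 h, Eif5a, Eif4a1 and Eif6 are highest at 12 h, and Eif4ebp2 and Eif4a2 lie below their 0 h libraries at both times.

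The helicase paralogs of eIF4F also moved apart at 12 h. Eif4a1 (chr11:69666936-69672423, minus strand), the major eIF4A, stood at 546, 577 and 571 CPM at 0 h, at 611, 618 and 608 CPM at 12 h and at 561, 560 and 560 CPM at 24 h. The 12 h libraries were the 3 highest, and those at 24 h fell within the range at 0 h. Eif4a1 was higher at 12 h by 8.4% (log2 fold change 0.12 ± 0.03, adjusted p = 0.0157). Eif4a2 (chr16:23107444-23114136, plus strand), its close paralog, stood at 245, 247 and 246 CPM at 0 h, at 212, 211 and 199 CPM at 12 h and at 237, 222 and 217 CPM at 24 h. All later libraries were below those at 0 h, and the lowest were those at 12 h. Its log2 fold change was -0.25 ± 0.04 at 12 h (adjusted p = 0.000238), the largest fall that passed there, and -0.13 ± 0.04 at 24 h (adjusted p = 0.0345). Per kb, Eif4a1 stood at 2.83 ± 0.0701 times Eif4a2 at 0 h, 3.64 ± 0.110 times at 12 h and 3.07 ± 0.132 times at 24 h. The ratios at 12 h, from 3.55 to 3.76, lay above all the others. The fall of Eif4a2 at 24 h had an adjusted p of up to 0.193 with 1 library left out: it did not pass without any 1 of the 3 replicates at 0 h, or without replicate 2 or 3 at 24 h, and its log2 fold change in those fits lay between -0.13 and -0.10. Eif4a3, the eIF4A paralog of the exon junction complex, did not pass.

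**Figure D4:**
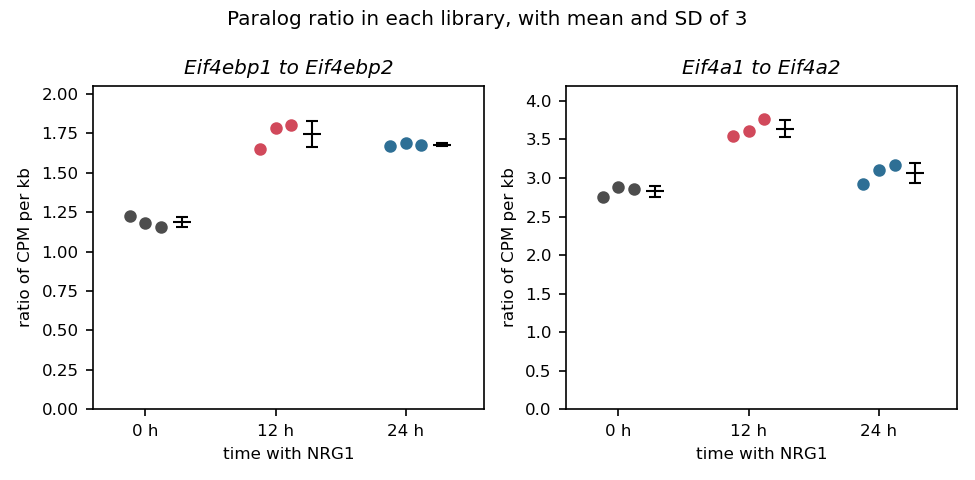
Ratio of CPM per kb of Eif4ebp1 to Eif4ebp2 (left) and of Eif4a1 to Eif4a2 (right) in each library at 0, 12 and 24 h, with the mean and SD of 3 libraries; the axes start at 0. The ratio of the binding proteins stays up at 24 h (1.19, 1.75 and 1.68), and that of the helicases is highest at 12 h (2.83, 3.64 and 3.07).

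Among the cofactors of the helicase, Eif4h was higher at 12 h by 8.6% (574 to 613 CPM at 0 h, 640 to 656 CPM at 12 h, log2 fold change 0.12 ± 0.03, adjusted p = 0.0169), and Eif4b did not pass at 12 h (-0.07, adjusted p = 0.189) or 24 h (-0.12, adjusted p = 0.0527). None of the 3 scaffold genes passed in edgeR in any comparison, while by an unadjusted p of at most 0.05 it was 1 at 24 h and 0 otherwise, and DESeq2 called 1 at 24 h (Eif4g2). Eif4g1 had a log2 fold change of 0.02 at 12 h, Eif4g2, which encodes a scaffold that lacks the eIF4E-binding part, one of -0.05, and Eif4g3 one of -0.07, and the 95% intervals of all 3 lay between -0.16 and 0.09. Of the eIF4F subunits, then, the cap-binding protein gene Eif4e and both helicase genes had changes that passed at 12 h. The scaffold genes did not, although the difference between subunits was not tested.

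Of the 5 genes named for eIF1 and eIF1A, which act in scanning for the start codon, 4 were higher at 12 h and 1 at 24 h, a count that includes Eif1ad, which is no established scanning factor. Eif1 (chr11:100319885-100322096, plus strand), which guards the choice of start codon, stood at 707, 705 and 687 CPM at 0 h, at 821, 846 and 886 CPM at 12 h and at 823, 829 and 844 CPM at 24 h. All 6 later libraries were above the 3 at 0 h. It was higher by 21.6% at 12 h (log2 fold change 0.28 ± 0.04, adjusted p = 2.38e-05) and by 18.9% at 24 h (0.25 ± 0.04, adjusted p = 9.65e-05). The genes that share sequence windows with Eif1 include Emd, itself higher at 12 h by 0.15 on the log2 scale (adjusted p = 0.0138). Reads of the shared part could pass between them. The Eif1 paralog Eif1b, at 24.6 to 27.5 CPM at 0 h, was higher at 12 h (30.4 to 32.0 CPM, log2 fold change 0.27 ± 0.06, adjusted p = 0.00432), and at 24 h (24.3 to 28.2 CPM) its values overlapped those at 0 h. Eif1ad, which encodes a protein with an eIF1A domain, was higher at 12 h by 21.4% (adjusted p = 0.00209). Of the exonic bases of Eif1ad 15.3% overlap Banf1 on the opposite strand, and Banf1 was itself higher at 12 h, by 0.20 on the log2 scale (adjusted p = 0.00101), so counts without strand could pass between them. For Eif1b the overlap on the opposite strand was 12.7%. Of the eIF1A genes proper, Eif1ax was higher at 12 h by 8.2% (adjusted p = 0.0181) and Eif1a, with a 95% interval from -0.04 to 0.10, did not pass.

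Of the 3 eIF2 subunit genes tested, 2 were higher at 12 h. Eif2s2 (chr2:154871410-154892935, minus strand), the beta subunit of eIF2, stood at 228, 236 and 238 CPM at 0 h, at 277, 265 and 282 CPM at 12 h and at 251, 264 and 256 CPM at 24 h. The 6 later libraries were above all 3 at 0 h, and those at 12 h were the highest. Its log2 fold change was 0.23 ± 0.04 at 12 h (adjusted p = 0.000232) and 0.13 ± 0.04 at 24 h (adjusted p = 0.0184). Eif2s1, the alpha subunit that the Eif2ak kinases phosphorylate, was higher at 12 h by 10.4% (147 to 159 CPM at 0 h, 166 to 172 CPM at 12 h, adjusted p = 0.00954). Eif2s3x, the gamma subunit on chromosome X, had a log2 fold change of 0.04 at 12 h, with an interval from -0.04 to 0.11. Its counterpart on chromosome Y, Eif2s3y, had 0 or 1 count in each library and was not tested. None of the 5 subunit genes of eIF2B, the factor that recharges eIF2 with GTP, passed in edgeR or DESeq2 in either comparison against 0 h (1 at each time had an unadjusted p of at most 0.05), and their intervals lay between -0.21 and 0.26 at 12 h. Eif2a, which encodes an initiator tRNA-binding protein that is no subunit of eIF2, was lower at 12 h (204 to 215 CPM at 0 h, 180 to 190 CPM at 12 h, log2 fold change -0.15 ± 0.04, adjusted p = 0.00583) and at 24 h (186 to 187 CPM, -0.15 ± 0.04, adjusted p = 0.00731). Eif2d, another factor able to bind initiator tRNA, had a log2 fold change of 0.15 at 12 h that did not pass (adjusted p = 0.0516).

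Eif5, Eif5a and Eif6 were higher at 12 h, and Eif5b and Eif5a2 did not pass. Eif5, whose protein makes eIF2 hydrolyse its GTP, rose from 410 to 424 CPM at 0 h to 455 to 477 CPM at 12 h, by 11.9% (adjusted p = 0.00194), and stood at 433 to 441 CPM at 24 h (log2 fold change 0.07, adjusted p = 0.155). Eif5b, the GTPase of subunit joining, with 16.8% of its exonic bases in an overlap on the opposite strand, did not pass, with an interval from -0.10 to 0.07 at 12 h. Eif5a (chr11:69916714-69921958, minus strand) stood at 466, 465 and 500 CPM at 0 h, at 571, 568 and 567 CPM at 12 h and at 516, 495 and 514 CPM at 24 h. The 12 h libraries were above all the others, and the lowest library at 24 h lay below the highest at 0 h. Eif5a was higher by 19.2% at 12 h (log2 fold change 0.25 ± 0.04, adjusted p = 8.72e-05) and did not pass at 24 h (0.09, adjusted p = 0.0953). Its paralog Eif5a2, at 9.93 ± 0.482 CPM at 0 h, had an interval from -0.16 to 0.22 at 12 h, which overlaps that of Eif5a (0.18 to 0.33), and the difference between the paralogs was not tested. Eif6, whose protein keeps free large ribosomal subunits from joining, stood at 200, 190 and 193 CPM at 0 h, at 222, 216 and 213 CPM at 12 h and at 203, 196 and 191 CPM at 24 h. Its libraries at 12 h were the 3 highest, and it was higher there by 11.7% (adjusted p = 0.00434).

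Transcripts of the large scaffold complex eIF3 and of the elongation factors showed little change. Of the 14 eIF3 genes 1 passed against 0 h: Eif3c, a core subunit, which was higher by 8.1% at 12 h (582, 603 and 583 CPM at 0 h against 635, 633 and 644 CPM, adjusted p = 0.0168) and by 8.5% at 24 h (636, 647 and 634 CPM, adjusted p = 0.0182). The other 13 had log2 fold changes of either sign, down to -0.09 for Eif3k at 12 h and -0.12 for Eif3j1 at 24 h. At an unadjusted p of at most 0.05 in edgeR, Eif3k was lower at 12 h, and Eif3e and Eif3j1 at 24 h. Of all 14, 4 were positive and 10 negative at 24 h. Eif3j1 and Eif3j2, both among the 10, share sequence windows, so their counts may not be separate. All 24 h libraries lay below those at 0 h for Eif3a, Eif3b, Eif3e, Eif3g and Eif3j1, and above them for Eif3c. Over all genes this was so for 17.9% and 17.6%. Eif3b passed in the test across all 3 times but in no comparison of a pair of times. Eef1a1, Eef1b2, Eef1d, Eef1g and Eef2 did not pass in any comparison in edgeR, and of these 5 Eef1g alone had an unadjusted p of at most 0.05 or a call in DESeq2, both at 12 h. Eef1a1 stood at 15184, 14107 and 13980 CPM at 0 h, at 14813, 14241 and 14050 CPM at 12 h and at 14284, 14125 and 14286 CPM at 24 h, and the groups overlapped. Its log2 fold change was -0.01 at 12 h, with an interval from -0.08 to 0.07, and -0.02 at 24 h, from -0.10 to 0.06. For Eef2 the values were -0.03 (-0.11 to 0.05) and 0.03 (-0.05 to 0.11). Eef1g, the largest of these at 12 h, had a log2 fold change of 0.08 (adjusted p = 0.0783). Over the 19 genes of eIF3, eEF1 and eEF2 every 95% interval lay inside -0.16 to 0.18 (12 h) and -0.22 to 0.19 (24 h). The other 41 tested members held 14 of the 15 rises and all 4 falls at 12 h, a split seen in these data and given as a count, with no test. Eef1e1, a component of the multi-tRNA synthetase complex and not a subunit of eEF1, did not pass at 12 h (0.12, adjusted p = 0.0801).

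Of the 7 genes whose proteins modify elongation factors, 2 passed. Eef2k, the kinase that phosphorylates eEF2 and slows elongation, stood at 46.7, 48.8 and 45.9 CPM at 0 h, at 55.1, 51.2 and 53.5 CPM at 12 h and at 48.1, 47.6 and 48.4 CPM at 24 h. The 12 h libraries were the 3 highest, with a log2 fold change of 0.18 ± 0.05 (adjusted p = 0.00828). Eef1aknmt, a methyltransferase of eEF1A, was lower at 12 h (35.4 to 40.0 CPM at 0 h, 32.7 to 34.3 CPM at 12 h, -0.16 ± 0.05, adjusted p = 0.0438) and at 24 h (30.1 to 32.1 CPM, -0.26 ± 0.05, adjusted p = 0.00279), its fall at 24 h being the largest that passed there. The call at 12 h did not hold with DESeq2, with the replicate block, with the GC trend removed, in the fit of only the groups compared or in 6 of the 9 fits with 1 library left out, with an adjusted p of up to 0.235 in the latter, and the one at 24 h held in all of these. Eef1akmt3 had the largest log2 fold change of either sign at 24 h, -0.62, but with 0.622 to 1.92 CPM over the libraries its interval ran from -1.25 to 0.00 (adjusted p = 0.168).

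Between 12 and 24 h, 0 members were higher and 6 (10%) were lower at an adjusted p of at most 0.05 in edgeR, while over all genes 1.97% were higher and 3.06% lower. At an unadjusted p of at most 0.05 it was 1 member higher and 19 lower, and the share of all genes at that threshold was not computed. DESeq2 found 0 higher and 8 lower, and it passed 6.89% of all genes in either direction. The 6 were Eif1b (log2 fold change -0.25, adjusted p = 0.0277), Eif4h (-0.17, adjusted p = 0.0107), Eif5a (-0.16, adjusted p = 0.0171), Eif6 (-0.14, adjusted p = 0.0358), Eif4a1 (-0.13, adjusted p = 0.0345) and Eif2s3x (-0.12, adjusted p = 0.0474). The first 5 of these had been higher at 12 h than at 0 h. All 3 libraries at 24 h lay above those at 12 h for 3 members (5%) and below them for 21 (35%), beside 11.4% and 13.6% of all genes. The median log2 fold change of members was -0.04, beside 0.00 for all genes, and 14 of the 15 members that were higher at 12 h had a negative value, Eif3c being the exception. Those 15 were chosen by the same 12 h libraries from which this comparison starts. The choice itself favours negative values, also for the first 5 named above, and the share among all genes higher at 12 h was not computed. The calls between 12 and 24 h rested on single libraries: with 1 library left out the number ran from 0, without replicate 2 at 24 h, to 12, without replicate 3 at 12 h, it was 1 without replicate 1 at 12 h or without replicate 1 or 3 at 24 h, and 3 without replicate 2 at 12 h. No 1 of the 6 passed in all 9 of these fits. For the comparisons against 0 h, 15 of the 19 members at 12 h and 5 of the 8 at 24 h passed in all 9. At 12 h the 4 that did not were Eif1ax (without replicate 1 or 2 at 12 h), Eif4a1 (without replicate 2 at 12 h), Eif4h (without replicate 3 at 0 h) and Eef1aknmt (without 6 of the 9 libraries, taken 1 at a time). At 24 h they were Eif4a2, given above, Eif2s2, which needed replicate 1 at 0 h and replicates 2 and 3 at 24 h, and Eif3c, which needed replicate 3 at 0 h and replicates 1 and 2 at 24 h. Without replicate 2 at 24 h 5 members passed in place of 8, beside 12.0% of all genes in place of 17.4%.

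Promoter sequence was read for the members as context. CACGTG, the E-box to which MYC and related factors can bind, was searched in the RefSeq promoter windows on GRCm38.p6, which run from 250 bases before to 50 after a gene's start. The letters read the same on both strands. Windows were found for 49 of the 65 members. CACGTG was in a window of 14 of them (28.6%), and in 7.15% of all 32851 windows or, counted by gene, in 8.09% of 27025 genes. These 27025 are all genes with a RefSeq window, whether or not they were expressed or tested here. They are an unlike set to the members, and the share among the genes tested was not computed. By outcome at 12 h the motif was in 6 of the 13 members with a window that were higher (46.2%), in 1 of the 4 that were lower and in 7 of the 30 that did not pass (23.3%), counts that were not tested. The last were Eef2, the scaffold gene Eif4g1, Eif3a, Eif3f, Eif3k, Eif5a2 and Eef1akmt4, and the lower one was Eef1aknmt. Only the sites of the 6 higher members are shown, a choice made by their outcome at 12 h. Sites of the lower member and of those that did not pass are not printed. The 6 include the genes of the cap-binding protein, the helicase and its cofactor, eIF5A and the eEF2 kinase. Each site is written 5′ to 3′ along the gene's own strand, with the motif in capitals.
Eef2k, chr7:120842788-120842817, plus strand: cccggggacggcCACGTGagcccgggcgtg
Eif1b, chr9:120492570-120492599, plus strand: cgtgcggacggtCACGTGgcggcggcgcgc
Eif4a1, chr11:69672595-69672624, minus strand: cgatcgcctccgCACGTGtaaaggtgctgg
Eif4e, chr3:138527028-138527057, plus strand: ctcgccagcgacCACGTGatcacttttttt
Eif4e, chr3:138527192-138527221, plus strand: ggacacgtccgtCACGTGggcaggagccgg
Eif4h, chr5:134639488-134639517, minus strand: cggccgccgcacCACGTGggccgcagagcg
Eif5a, chr11:69920791-69920820, minus strand: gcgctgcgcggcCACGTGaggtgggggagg
Eif5a, chr11:69921443-69921472, minus strand: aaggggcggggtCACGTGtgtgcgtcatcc

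The motif started 64 and 228 bases before the RefSeq start whose window holds it in Eif4e, 189 bases before that of Eif4a1, 96 before that of Eif4h, 31 before that of Eef2k and 24 before that of Eif1b. Eif5a has several RefSeq starts, and no distance is given for it. The sites of Eif4e and Eif1b lie wholly inside annotated untranslated sequence, that of Eif4h and the first listed of Eif5a in part, and those of Eif4a1 and Eef2k and the second of Eif5a outside it. For Eif4a1 the 250 bases before the start are given whole, since no annotated untranslated region reaches into them.
Eif4a1, chr11:69672424-69672673, minus strand: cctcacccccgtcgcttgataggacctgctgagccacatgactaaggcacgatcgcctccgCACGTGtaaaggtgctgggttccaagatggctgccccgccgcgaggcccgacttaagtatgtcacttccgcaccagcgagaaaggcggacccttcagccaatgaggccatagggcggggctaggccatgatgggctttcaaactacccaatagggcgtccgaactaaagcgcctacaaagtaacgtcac
A match of letters is a description of these windows and does not show binding. Eif4ebp1, Eif6, Eif1a, Eif2b3, Eif3e, Eif3h, Eif3i, Eif3j2, Eif4a3l2, Eif4e3, Eif4ebp3, Eif4g2, Eef1d, Eef1g, Eef1akmt1 and Eef1akmt3 had no matched window.

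Genes that act on these factors were counted from a list of 45, of which 44 were tested. At 12 h 5 were higher (11.4%) and 6 lower (13.6%), near the 13.6% and 11.9% of all genes. At 24 h 3 were higher (6.82%) and 5 lower (11.4%), beside 9.67% and 7.76% of all genes. From 12 to 24 h Eif2ak2 alone passed, as higher, and none of these changes reached 1.5-fold. At 12 h the largest rises were those of Ppp1r15a (log2 fold change 0.24, adjusted p = 0.0234) and Ppp1r15b (0.23, adjusted p = 0.00227), whose products bring a phosphatase to eIF2 alpha, and of Rps6ka1 (0.17, adjusted p = 0.00661), a kinase of the MAPK pathway. The largest falls were those of Mtor (-0.24, adjusted p = 0.00383), the kinase that phosphorylates the 4E-BPs, of Rps6kb2 (-0.23, adjusted p = 0.0485), an S6 kinase, and of Pdcd4 (-0.22, adjusted p = 0.00555), an inhibitor of eIF4A. At 24 h Eif2ak2 (0.16, adjusted p = 0.0437), Ppp1r15b (0.15, adjusted p = 0.0410) and Rheb (0.12, adjusted p = 0.0452), the GTPase that activates mTORC1, were higher. Pdcd4 (-0.27, adjusted p = 0.00130), Mknk1 (-0.21, adjusted p = 0.0166), a kinase of eIF4E, and Dph1 (-0.19, adjusted p = 0.0352), an enzyme of the diphthamide pathway that modifies eEF2, were lower. The median of the list was 0.00 at 12 h and -0.01 at 24 h, beside 0.02 and -0.01 for the members and 0.00 and -0.01 for all genes.

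The 5 members that were not tested were Eif4ebp3, Eif4e3, Eif2s3y and the helicase paralogs Eif4a3l1 and Eif4a3l2, with no more than 12 counts in any library. A count of 0 still allows a level of up to 3 counts, which is 0.0764 to 0.106 CPM in these libraries, for counting error only.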

How the data were processed

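RNA was measured in 9 MyC-CaP libraries, 3 each at 0, 12 and 24 h, grouped by the time in the labels, as paired 150 bp reads. The authors trimmed reads with Cutadapt, aligned them to GRCm38.p6 with STAR and counted them per gene with featureCounts, and the values they deposited are raw counts. Strand setting and treatment of reads matching several genes were not given in the sources used here, so counts of overlapping genes and close copies are uncertain.

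The members, their groups and the gene lists were chosen with earlier results of these data known. Counts were filtered with filterByExpr and scaled by TMM in edgeR 4.0.16 (R 4.3.3). The 9 libraries were fitted together, and times were compared by the quasi-likelihood F-test with Benjamini-Hochberg adjustment over 11373 genes. A member passed at an adjusted p of at most 0.05 and was also counted at 1.5-fold. Standard errors were derived from the F statistic of each log2 fold change, and intervals are at 95%. The p-values set the difference between times against the spread between these samples, described only as biological replicates plated in triplicate. Whether the replicates came from separate cultures was not given in the sources used here. CPM are TMM-scaled, with mean ± SD of 3. The procedure was also run on counts simulated with means and spread estimated from these libraries, which checks the code and is no support for the results here.

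Named with values were the 10 largest passing members of each comparison against 0 h, the Eif4ebp genes, paralog sets, and the extremes of each group at 12 h. Other members, such as Eif1ax, Eif2s1, Eif3b and Eif4b, were named after their values were seen. Pathway genes outside the family were named as up to 3 rises and 3 falls against 0 h. Alternatives were DESeq2 1.42.0, its size factors, total counts, no filter, a fit of only the groups compared, a replicate block, leaving out each library and, chosen after seeing the data, removal of a GC trend. Exon lengths, overlaps and shared windows came from GENCODE on GRCm38, where all 65 members had the same coordinates as in the file. Eef1a2 and Eif4e1b were not analysed here. Some cell type markers are not reported here.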

Additional observations from a re-analysis of the deposited data

Results flagged for a closer look

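For 6 members the change against 0 h differed between 12 and 24 h, by the edgeR test of 24 h against 12 h itself. The log2 fold change from 12 to 24 h was -0.25 for Eif1b, -0.17 for Eif4h, -0.16 for Eif5a, -0.14 for Eif6, -0.13 for Eif4a1 and -0.12 for Eif2s3x. In all 6 the 3 libraries at 24 h lay below the 3 at 12 h. None of these calls held in every fit with 1 library left out. Groups of 3 libraries are too small to look for single libraries far from the rest.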

How the results depend on the processing

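The number of members passing was 19 at 12 h, 8 at 24 h, 6 between 12 and 24 h and 21 over all 3 times. Of all genes 25.5%, 17.4%, 5.03% and 27.4% passed in these tests. DESeq2 gave 19, 11, 8 and 22, beside 24.0%, 16.7%, 6.89% and 26.9% of all genes. Removal of a GC trend, chosen after seeing the data, gave 21, 9, 8 and 23, beside 26.3%, 18.5%, 6.19% and 29.0%. The fit of only the groups compared gave 14, 9 and 7. With total counts in place of TMM the number between 12 and 24 h was 3, beside 4.78% of all genes, and Eif4a1, Eif6 and Eif2s3x did not pass there. The cause was not tested. With 1 library left out the numbers ran from 16 to 22 at 12 h, from 5 to 9 at 24 h, from 0 to 12 between 12 and 24 h and from 16 to 27 over all times. The shares of all genes ran from 20.3% to 24.1%, from 11.5% to 20.5%, from 1.86% to 7.63% and from 21.3% to 29.7%. At 12 h Eef1aknmt did not pass with DESeq2, the replicate block, the GC trend removed or only the 2 groups compared, and Eif1ax, Eif3c, Eif4a1 and Eif4h did not pass in the fit of the 2 groups. Eif2s3x between 12 and 24 h passed in DESeq2, and did not with DESeq2's size factors in edgeR, with no filter, with the block, with the GC trend removed or in the fit of the 2 groups. Over 2880 alternatives of single members, 64 lost a call, 44 gained one and none turned the direction of a call, and of 2308 with no call in either fit 133 changed sign.

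Replicate numbers were not found to pair the libraries: deviations from the group means correlated at -0.07 to 0.13 between libraries with the same number and at -0.13 to 0.12 between others. With the replicate block 19, 10, 5 and 22 members passed, beside 26.0%, 17.9%, 5.35% and 27.9% of all genes.

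Depth limits Eef1akmt3 and the 5 members not tested. With 3 libraries a time, the smallest log2 fold change that passed was 0.11, for Eif3c at 12 h.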
